A study of Mus musculus with 14 samples.

Results

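The 45 genes described here encode enzymes that carry glucose carbon to pyruvate and oxidise it in mitochondria, or belong to side routes of these pathways. They were chosen by symbol: a gene was a member when its name in the count table equalled 1 of 45 listed symbols of glycolysis, the pyruvate dehydrogenase complex, the TCA cycle, malate and aspartate exchange, the pentose phosphate pathway and pyruvate carboxylase. The 45 symbols stood in 46 of the 56923 rows of the table, because Aldoa was listed under 2 gene identifiers.

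RNA-seq read counts of mouse 2-cell embryos were compared in 14 libraries, 2 for each of 7 groups, with 5 ICR embryos pooled in a library. In 5 groups, embryos were placed at 24 h after hCG in modified KSOM medium with 0.20 mM glucose, 0.20 mM pyruvate, 5 µM Gne140 (an inhibitor of the lactate dehydrogenases LDHA and LDHB) and 50 µM NMN (a precursor of NAD+). The G&N groups kept 10 mM lactate, whereas the G&N-L groups had none. Early G&N and early G&N-L embryos were collected at 30 h, and late G&N, late G&N-L and late G&N-L + Lac-CoA embryos at 54 h, the last after injection of lactyl-coenzyme A. The late WT and late H3K18R groups came from zygotes injected with 200 ng/µL of a mixture of wild-type or mutant histone H3.1, H3.2 and H3.3 mRNAs. Both were late 2-cell embryos, a stage that the methods set at 54 h. The paper names no inhibitor, NMN or medium for these 2 groups. The mutant H3 carries arginine in place of lysine 18, and it was expressed beside the embryo's own H3. Stage and hours in the inhibitor medium went together, so the early and late groups differ in both, which cannot be told apart. The groups were taken from the sample titles: the treatment label of early G&N names the inhibitor alone, that of early G&N-L does not mention the missing lactate, and the count columns write K18A where the titles write H3K18R.

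Glycolysis splits glucose into pyruvate in the cytosol, and the pyruvate dehydrogenase complex turns pyruvate into acetyl-CoA for the TCA cycle inside mitochondria. Cleavage-stage mouse embryos are known for using pyruvate and lactate before glucose, and for replacing maternal transcripts with embryonic ones at the 2-cell stage. The complex joins an E1 enzyme of alpha and beta subunits (Pdha1, Pdhb), an E2 acetyltransferase (Dlat), an E3 dehydrogenase (Dld) and an E3-binding protein (Pdhx), and kinases (Pdk1 to Pdk4) switch E1 off by phosphorylation. NAD-dependent isocitrate dehydrogenase is likewise built of different subunits (Idh3a, Idh3b, Idh3g), whereas Idh1 and Idh2 are separate NADP-dependent enzymes of the cytosol and the mitochondria.

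The libraries held 20350427 to 61275465 counts, so that 3 counts, taken as the floor, were 0.0589 to 0.144 CPM (counts scaled to a common library size, here on library sizes scaled by the trimmed mean of M values). Maternal transcripts moved with stage and group: the summed level of 14 oocyte and maternal genes was 22500 to 30630 CPM in the 4 early libraries, 13710 and 15610 in late G&N, 17230 and 20040 in late G&N-L, 14510 and 10320 after Lac-CoA, 3988 and 3990 in late WT and 4270 and 8824 in late H3K18R. The sum of 10 genes that 2-cell embryos switch on, such as the Zscan4 genes, was 14.3 to 93.2 CPM in the early and 1587 to 4160 CPM in the late libraries. Dppa2, Dppa3 and Dppa4, of the same marker list, were left out of this sum. With them the sum of 13 genes, mostly Dppa3, did not rise: 13510 to 24830 CPM in the early and 11890 to 18840 CPM in the late libraries. Of 15 cumulus and granulosa cell markers Inhba was at 0 throughout, Inha, Cd44, Ptx3 and Foxl2 stayed under 1 CPM, and most of the summed level of 84.7 to 711 CPM was Serpine2. Others of that list were higher: scaled by library totals, Cyp19a1 was read at 10.97 to 19.1 CPM in the early libraries, Tnfaip6 at up to 19.7 CPM in late H3K18R, and Amhr2 at 8.67 to 18.7 CPM in late WT and late H3K18R. Of 8 blood markers, Hbb-bs and Hbb-bt were at 0, and the sum was 0.499 to 4.96 CPM in the early and 20.9 to 69.4 CPM, mostly Hba-a1, in the late libraries. The part of these markers in the results below was not tested. In these pooled embryos, less RNA per embryo and a smaller share of one transcript cannot be told apart.

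Every member row had more than 3 counts in some library, but 40 of 46 passed the filter on low counts in all 7 comparisons of 2 groups. The exceptions were Aldoc, Gapdh, Idh2, Pdk2, Pdk4 and the second Aldoa row. To compare genes with each other, CPM was divided by the length of the canonical transcript in kilobases (GENCODE vM39). In the early libraries Pdhx ranked first, with a median of 90.9 CPM per kb, followed by Mdh1 (79.3), Pdhb (57.6), Got1 (50.5) and Idh3a (50.1). In the late libraries the order was Pdhb (138), Mdh2 (137), Idh3g (65.6), Cs (31.2) and Taldo1 (28.3). Pdhx had then moved to position 13, and the ranges of Pdhb and Mdh2 over libraries, 66.1 to 182 and 73.8 to 278 CPM per kb, overlapped.

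**Figure D1:**
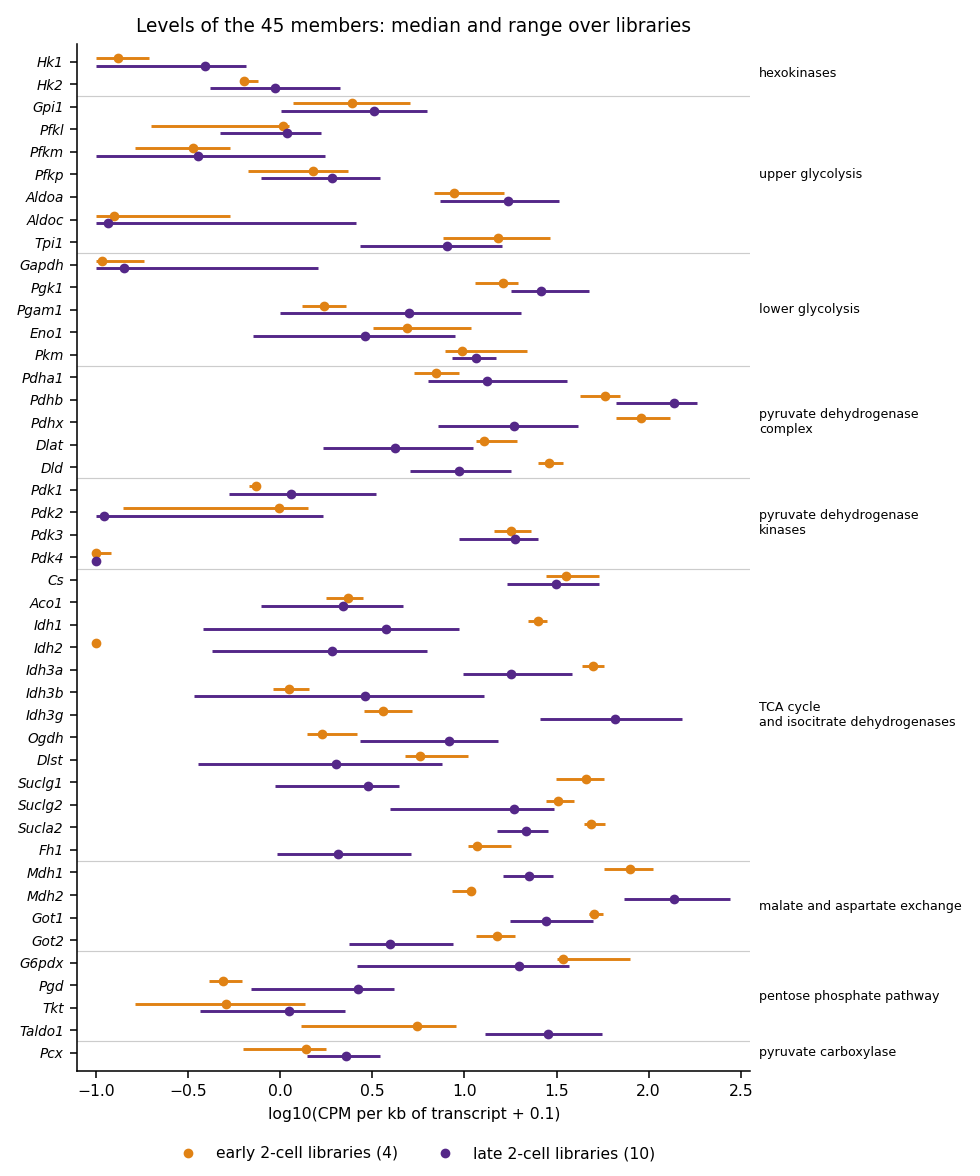
Level of each of the 45 members on a scale of log10(CPM per kb of canonical transcript + 0.1), with genes ordered by role; points are medians and bars the lowest to highest library, for the 4 early and the 10 late libraries. The bars of Idh3g, Mdh2, Taldo1, Ogdh and Pgd lie higher at the late stage without overlap. Those of Idh1, Suclg1, Pdhx, Mdh1, Fh1, Dld, Sucla2, Idh3a, Got2 and Dlat lie lower without overlap. Idh2 is at 0 in the early libraries, and the share of all genes without overlap was not counted.

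Hexokinases, phosphofructokinases and most kinases of the dehydrogenase were read at low levels throughout. Hk2, the isoform typical of insulin-sensitive and growing cells, ranged from 2.48 to 15.6 CPM over all libraries (median 5.43), and Hk1, the widespread isoform, from 0 to 2.37 CPM. The phosphofructokinases Pfkl, Pfkm and Pfkp, which commit sugar to glycolysis, reached at most 6.46, 6.63 and 14.6 CPM. Pdk3 was the only kinase of the dehydrogenase above 20 CPM in all libraries (22.7 to 61.7 CPM), and Pdk1 stood at 2.25 to 16.9 CPM. Pdk2 was at 0 in 5 libraries and at most 3.70 CPM, and Pdk4 held 4 counts in early G&N replicate 1 and none in the other libraries. None of the tested isoforms among these passed an adjusted p of 0.05 in edgeR in any comparison. Pkm, which makes pyruvate, ranged from 19.0 to 53.4 CPM, and Pcx, which carboxylates pyruvate to oxaloacetate, from 2.22 to 14.3 CPM. Gapdh, a high-abundance glycolytic transcript in most cells, was read at 0 to 2.15 CPM, and this value is uncertain: 81.5% of its exon bases are shared with transcripts of Iffo1 on the other strand, and 79 near-identical genes in the table held 4.23 to 21.9 CPM together. In all, 26 of the 46 rows share exon bases with another gene, 11 of them at least 20%, and no strand setting of the counting is given in the sources used here.

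More members passed the adjusted test between the early and the late 2-cell stage than in the other comparisons, and so did more of all genes. Some partner genes went in opposite directions, and others moved together. With lactate (late G&N against early G&N), 7 members fell (Suclg1, Pdhx, Mdh1, Idh1, Fh1, Got2 and Tpi1) and 2 rose (Mdh2 and Idh3g) at an adjusted p under 0.05 in edgeR's quasi-likelihood test, out of 42 tested. Over all 19443 genes tested, 5.47% fell and 8.18% rose by the same rule, against 16.7% and 4.76% of the members. Without lactate (late G&N-L against early G&N-L), 9 of 43 members fell (Idh1, Mdh1, Idh3a, Suclg1, Got1, Fh1, Sucla2, Dld and Pdhx) and 3 rose (Mdh2, Idh3g and Ogdh), against 5.87% and 5.97% of 18604 genes. The median change of the members was 0.06 with and 0.13 without lactate on the log2 scale, and that of all genes 0.08 and 0.15. Changes below are to be read against that shift, which was 0.46 and 0.51 when scaled by library totals. Under that scaling 2 members fell and 3 rose with lactate (4.76% and 7.14%, against 3.18% and 10.3% of all genes), and 6 fell and 4 rose without (13.95% and 9.3%, against 3.68% and 9.78%). In DESeq2, 10 fell and 8 rose with lactate (23.8% and 19.05%, against 11.95% and 18.7%), and 9 fell and 5 rose without (20.9% and 11.6%, against 11.3% and 16.8%).

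The calls rest on few libraries. In each fit of a stage comparison with 1 library left out, fewer members passed, and so did fewer of all genes tested. The loss was thus not particular to the members. Every called member kept its sign in all 11 alternatives of each stage comparison. With 2 libraries a group, an exact permutation test of a single gene cannot go below a two-sided p of 0.333, and the labels do not say whether the 2 libraries of a group came from separate collections of embryos, so the p-values measure the spread between these libraries only, which may be technical. Of the 14 maternal genes, 7 fell with lactate and 4 without, and the part of maternal transcripts in the member values was not tested.

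The same 7 members passed in both stage comparisons, which share no library: Pdhx, Idh1, Suclg1, Fh1 and Mdh1 fell and Idh3g and Mdh2 rose in each. The other called members were Got2 and Tpi1, called with lactate only, and Dld, Idh3a, Ogdh, Sucla2 and Got1, called without lactate only, and none of these 7 passed the adjusted test of a difference between both changes. Of 42 members tested in both, 33 (78.6%) changed with the same sign, as did 78.1% of 17126 genes. As a description across genes, which are not independent replicates, Pearson's r between the log2 fold changes was 0.902 over the members and 0.697 over all genes.

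**Figure D2:**
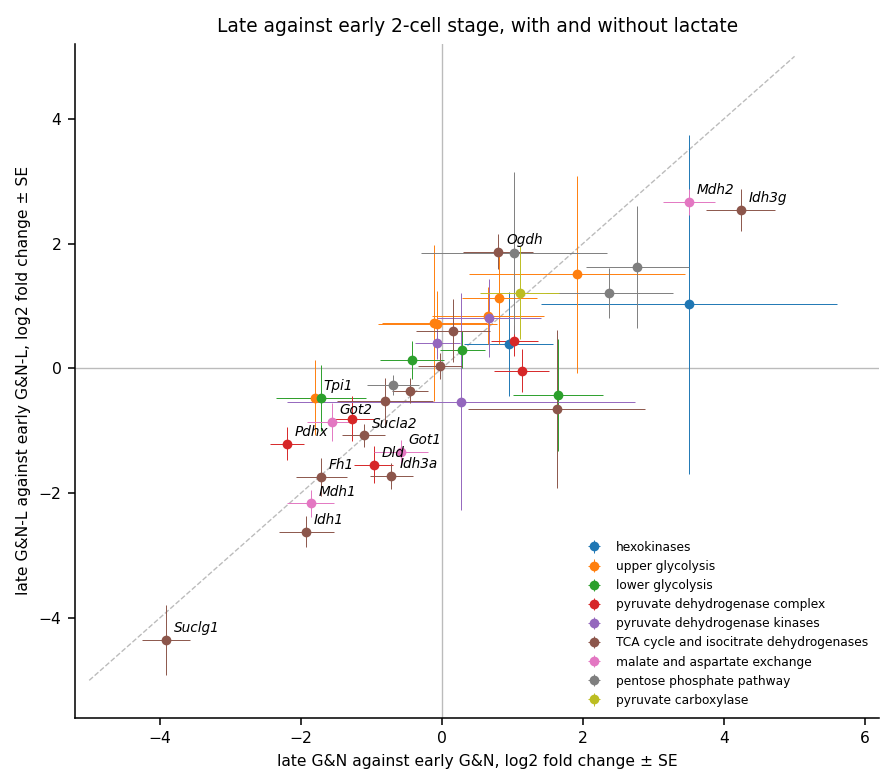
Log2 fold change of the late against the early stage with lactate (horizontal axis) and without (vertical axis), 1 point a member coloured by role, bars ± SE, dashed line of equality, with Idh2 left out because it is at 0 in the early libraries. The 14 members called in either comparison are named: Suclg1 lies at -3.91 and -4.35, Idh3g at 4.24 and 2.54.

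Suclg1, which encodes the alpha subunit shared by both forms of succinyl-CoA synthetase, had the largest fall among the called members; the gene lies on chr6:73225365-73253894, plus strand, in GRCm39. It stood at 86.7 and 72.0 CPM in early G&N and 66.8 and 47.4 in early G&N-L, but at 5.94 and 5.07 in late G&N and 1.61 and 4.20 in late G&N-L. The early and late libraries were apart in both media, with log2 fold changes of -3.91 ± 0.34 (SE, edgeR adjusted p = 0.00655) and -4.35 ± 0.56 (adjusted p = 0.0147). Its partner beta subunits moved less: Sucla2, of the ATP-forming enzyme, went from 133 and 146 CPM to 57.5 and 79.8 with lactate and from 173 and 143 to 71.4 and 85.0 without. Only the latter fall passed the adjusted test (log2 fold change -1.08 ± 0.19, adjusted p = 0.0297). Suclg2, of the GTP-forming enzyme, stayed between 73.7 and 134 CPM in these 8 libraries. Per kilobase, the ratio of Sucla2 to Suclg1 was 0.783 to 1.54 in the early and 4.26 to 24.2 in the late libraries.

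The subunits of NAD-dependent isocitrate dehydrogenase went opposite ways. The regulatory gamma subunit Idh3g (chrX:72820644-72830719, minus strand) was read at 4.35 to 8.04 CPM in the 4 early libraries, and at 62.7 and 133 CPM in late G&N and 41.8 and 40.3 in late G&N-L. The log2 fold changes were 4.24 ± 0.49 (adjusted p = 0.0106) and 2.54 ± 0.33 (adjusted p = 0.015). The catalytic alpha subunit Idh3a went from 146 and 112 CPM to 65.1 and 99.1 with lactate, and from 148 and 113 to 40.9 and 41.0 without. It fell without lactate (log2 fold change -1.73 ± 0.20, adjusted p = 0.0126), and with lactate the change was -0.71 ± 0.30 (adjusted p = 0.168). The ratio of Idh3g to Idh3a per kilobase was 0.062 to 0.0894 in the early libraries, 1.58 to 2.20 in late G&N and G&N-L, 4.25 and 2.57 after Lac-CoA, 8.88 and 13.9 in late WT and 5.34 and 4.17 in late H3K18R, so the early and late libraries did not overlap. Idh3b, the beta subunit, was low (0.391 to 20.5 CPM over all libraries). Of the exon bases, 20.6% of Idh3g and 42.8% of Idh3a are shared with genes of the other strand.

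The NADP-dependent enzymes also parted. Idh1 (chr1:65196781-65225721, minus strand) was read at 92.4 and 78.2 CPM in early G&N, 72.8 and 86.2 in early G&N-L, 16.6 and 30.6 in late G&N and 13.0 and 14.1 in late G&N-L. It fell by 1.93 ± 0.39 on the log2 scale with lactate (adjusted p = 0.0354) and by 2.62 ± 0.25 without (adjusted p = 0.00796). Idh2 had no count in any early library and 35 to 470 counts in the late libraries of the inhibitor groups. Against a floor of 3 counts over the early group, it was at least 45.8-fold higher in late G&N and at least 59.2-fold higher in late G&N-L, with adjusted p = 0.0592 and 0.0571. Its level stayed low, at 0.958 to 10.8 CPM in those 6 late libraries.

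The malate dehydrogenases, which pass reducing equivalents between cytosol and mitochondria, exchanged rank. Mdh2 (chr5:135807292-135820882, plus strand), the mitochondrial enzyme, stood at 12.7 to 16.9 CPM in the 4 early libraries and at 125 and 212 CPM in late G&N and 111 and 111 in late G&N-L. It rose by 3.50 ± 0.37 (adjusted p = 0.00907) and 2.67 ± 0.21 (adjusted p = 0.006) on the log2 scale. The cytosolic Mdh1 (chr11:21506423-21522367, minus strand) went from 264 and 142 CPM to 62.8 and 52.5 with lactate, and from 221 and 176 to 40.0 and 52.2 without. It fell by 1.86 ± 0.33 (adjusted p = 0.0261) and 2.16 ± 0.22 (adjusted p = 0.00887). The ratio of Mdh2 to Mdh1 per kilobase was 0.0994 to 0.159 in the early and 3.31 to 15.3 in the late libraries. Both aspartate aminotransferases were lower at the late stage: Got2 (mitochondrial) fell with lactate, from 47.4 and 38.5 CPM to 14.1 and 16.3, and Got1 (cytosolic) fell without it, from 106 and 98.1 CPM to 44.8 and 39.0.

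**Figure D3:**
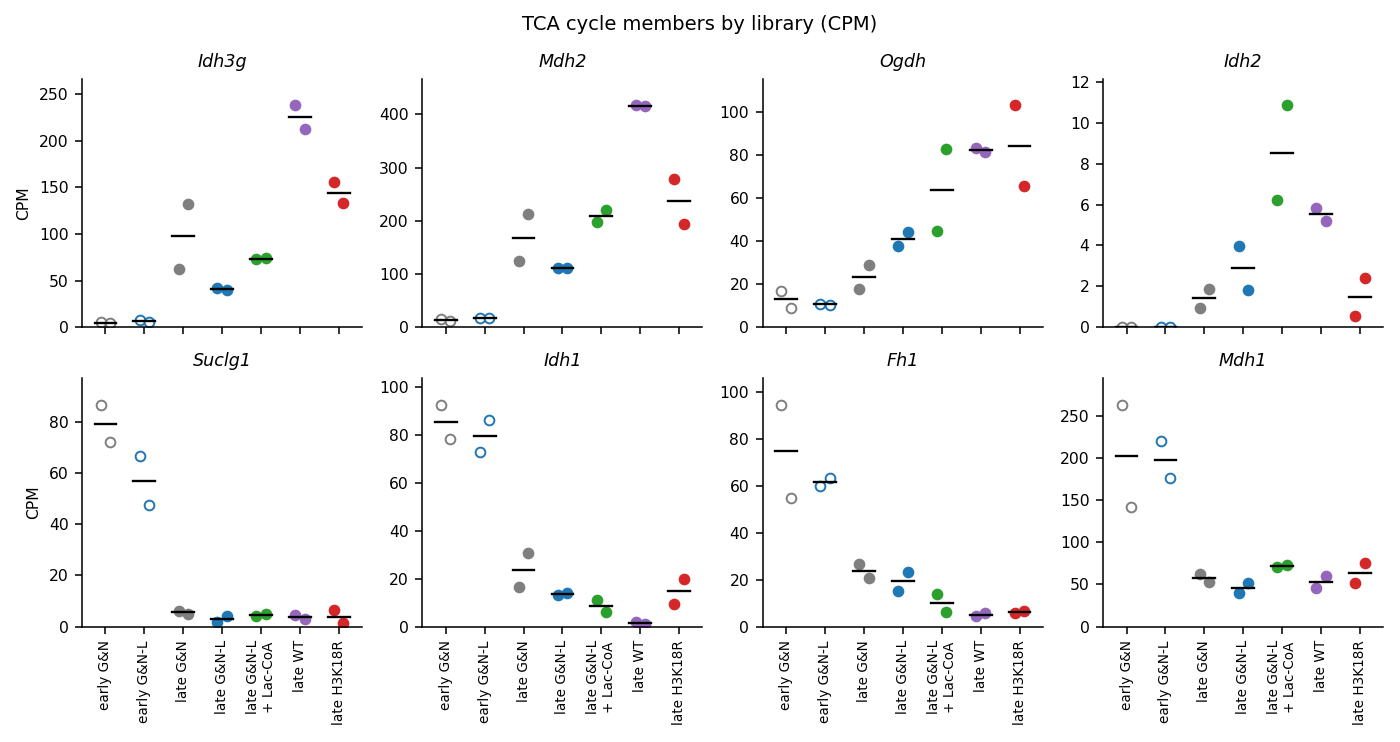
CPM of 8 TCA cycle and malate dehydrogenase members in each of the 14 libraries; each point is a library, open for the early stage, and the short line is the mean of the 2. Idh3g, Mdh2, Ogdh and Idh2 are higher and Suclg1, Idh1, Fh1 and Mdh1 lower in the late groups, with Idh3g and Mdh2 highest in late WT.

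Fumarase and 2-oxoglutarate dehydrogenase were also called. Fh1 (chr1:175425290-175453205, minus strand), fumarase, went from 94.4 and 54.8 CPM to 26.5 and 20.6 with lactate (log2 fold change -1.71 ± 0.36, adjusted p = 0.0387) and from 59.8 and 63.3 to 15.2 and 23.4 without (-1.74 ± 0.30, adjusted p = 0.0286). Ogdh, the E1 subunit of 2-oxoglutarate dehydrogenase, rose without lactate from 10.9 and 10.6 CPM to 37.9 and 44.1 (log2 fold change 1.87 ± 0.29, adjusted p = 0.0211). With lactate Ogdh went from 17.1 and 8.85 to 17.8 and 28.7 CPM, groups that stood side by side. Dlst, the E2 of the same complex, ranged from 7.09 to 34.9 CPM in these 8 libraries, and citrate synthase (Cs) from 81.7 to 158 CPM. Aco1, the cytosolic aconitase, ranged from 7.71 to 18.1 CPM. In all, 3 of 13 tested members of this role fell and 1 rose with lactate, and 5 fell and 2 rose without. Over all genes tested, 5.47% fell and 8.18% rose with lactate, and 5.87% and 5.97% without.

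Within the pyruvate dehydrogenase complex, Pdhx fell in both stage comparisons and Dld in the one without lactate. Pdhx (chr2:102849769-102904060, minus strand), the most abundant member per kilobase early on, was read at 571 and 439 CPM in early G&N and 353 and 290 in early G&N-L, and at 121 and 109 in late G&N and 111 and 180 in late G&N-L. It fell by 2.19 ± 0.24 (adjusted p = 0.00997) and 1.21 ± 0.27 (adjusted p = 0.0494) on the log2 scale. The call without lactate was lost when any 1 of its 4 libraries was left out, and over 11 alternatives the adjusted p was 0.00015 to 0.132. Dld, the E3 subunit shared with 2-oxoglutarate dehydrogenase, went from 153 and 113 CPM to 61.5 and 80.1 with lactate and from 142 and 115 to 34.2 and 57.6 without. Its fall without lactate passed the adjusted test (log2 fold change -1.55 ± 0.30, adjusted p = 0.0367), and with lactate the change was -0.97 ± 0.28 (adjusted p = 0.0692). The E1 genes were higher at the late stage with lactate, without passing the adjusted test. Pdhb went from 106 and 64.2 CPM to 142 and 218 with lactate (log2 fold change 1.03 ± 0.34, adjusted p = 0.0904), and Pdha1 from 26.4 and 17.7 to 38.4 and 61.8 (1.13 ± 0.39, adjusted p = 0.104). Without lactate Pdhb went from 91.2 and 84.2 CPM to 148 and 101 (0.45 ± 0.25, adjusted p = 0.303), and Pdha1 stood at 22.1 and 15.0 early and 17.9 and 19.6 late, which overlapped. The E2 gene Dlat did not pass in either comparison. It went from 90.1 and 76.9 CPM to 42.1 and 30.4 with lactate (-1.27 ± 0.31, adjusted p = 0.0537), and from 78.5 and 129 to 74.5 and 50.1 without (-0.81 ± 0.36, adjusted p = 0.206). The ratio of Pdhb to Pdhx per kilobase was 0.419 to 0.83 in the early and 1.60 to 21.6 in the late libraries. Other ratios of partners overlapped between the stages. Pdha1 to Dlat was 0.272 to 0.687 early and 0.563 to 22.4 late, and Pdhb to Pdha1 6.84 to 10.6 and 4.26 to 24.7. Suclg2 to Sucla2 was 0.534 to 0.878 early and 0.177 to 1.27 late. The share of all gene pairs without overlap was not counted.

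**Figure D4:**
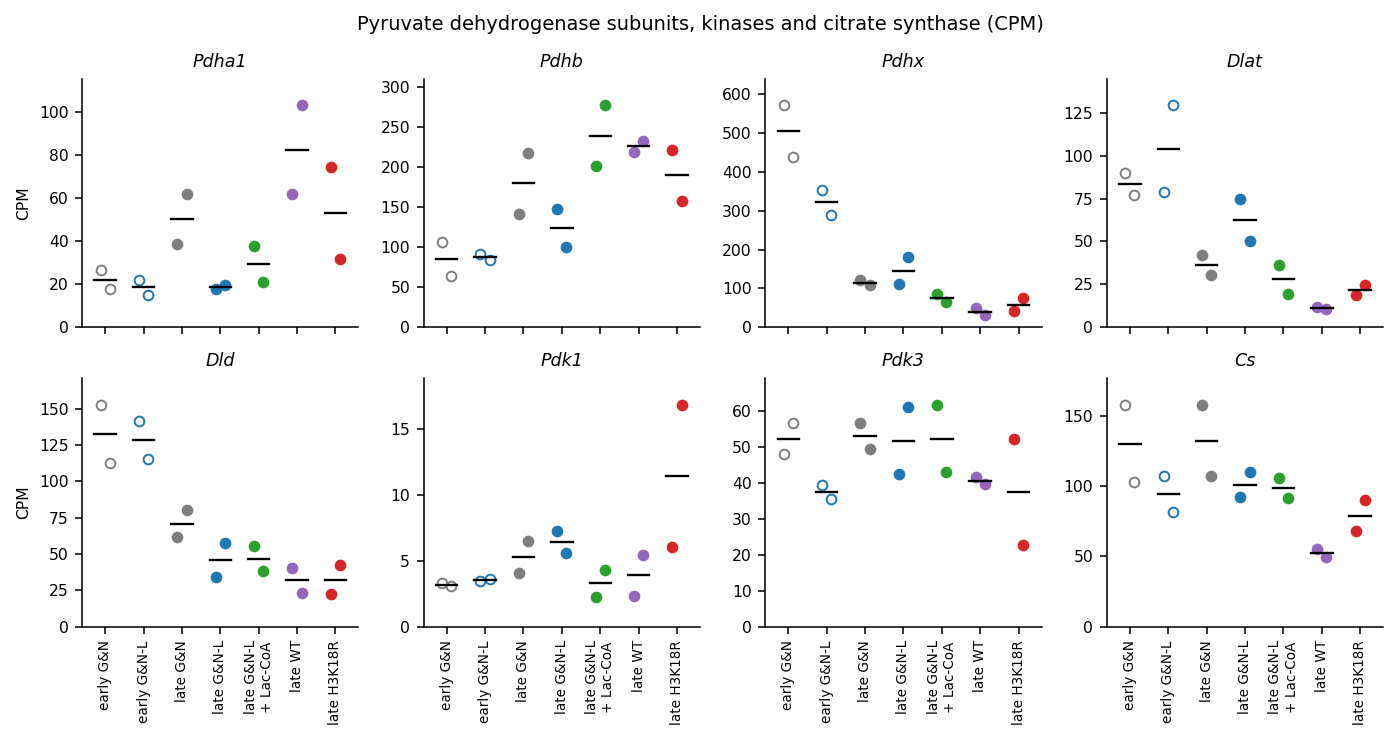
CPM of the 5 pyruvate dehydrogenase subunits, 2 kinases (Pdk1, Pdk3) and Cs in each library; each point is a library, open for the early stage, and the short line is the mean of the 2. Pdhx, Dlat and Dld are high in the early groups and low in late WT and late H3K18R, whereas the mean of Pdhb is highest after Lac-CoA.

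Of the glycolysis and pentose phosphate members, Tpi1 alone passed in the stage comparisons. Over all genes tested, 5.47% fell and 8.18% rose with lactate. Tpi1, triosephosphate isomerase, fell with lactate from 46.8 and 26.8 CPM to 11.8 and 10.1 (log2 fold change -1.80 ± 0.41, adjusted p = 0.0474), and without lactate it went from 12.2 and 22.2 to 7.46 and 18.8, where the groups overlapped. With lactate Eno1, Pgam1, Pgd and Taldo1 had an unadjusted p under 0.05 and adjusted p of 0.121, 0.135, 0.0612 and 0.13. Eno1 was lower (log2 fold change -1.71), and Pgam1 (1.65), Pgd (2.77) and Taldo1 (2.37) were higher at the late stage. Pgk1, Gpi1, Aldoa, Pkm and the pentose phosphate members G6pdx and Tkt had adjusted p over 0.05 in both stage comparisons. Over all libraries Gpi1 (glucose 6-phosphate isomerase) ranged from 2.65 to 17.97 CPM, Aldoa from 10.1 to 49.0, Aldoc (both aldolases) from 0 to 6.87, Pgk1 from 20.6 to 86.5 and Tkt (transketolase) from 0.202 to 6.92. The second Aldoa row held 54 counts in late G&N-L replicate 2 and 2 counts in the first Lac-CoA library. G6pdx, the entry enzyme of the pentose phosphate pathway, was among the members with the highest counts, at 156 to 470 CPM in these 8 libraries.

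To show the regulatory sequence of members that changed in both stage comparisons, the bases before the start of the canonical transcript are given for the 4 of the 7 genes where at least 50 of 250 bases lie outside annotated exons (mouse GRCm39, GENCODE vM39). The windows of Idh3g, Pdhx and Mdh1 begin inside exons of Ssr4, Apip and Wdpcp or Mdh1 itself. Each sequence runs 5′ to 3′ toward the start of the canonical transcript, which for Idh1 begins inside the annotated gene, downstream of an exon of another Idh1 transcript, and capitals mark the CCAAT box (CCAAT) and the GC box (GGGCGG) on either strand.
Suclg1 (chr6:73225115-73225364, plus strand): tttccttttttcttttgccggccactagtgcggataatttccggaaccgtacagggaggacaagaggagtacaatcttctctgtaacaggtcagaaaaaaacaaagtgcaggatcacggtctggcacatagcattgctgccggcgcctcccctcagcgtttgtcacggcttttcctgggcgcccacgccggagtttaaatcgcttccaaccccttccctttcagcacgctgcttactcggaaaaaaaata
Idh1 (chr1:65218341-65218488, minus strand): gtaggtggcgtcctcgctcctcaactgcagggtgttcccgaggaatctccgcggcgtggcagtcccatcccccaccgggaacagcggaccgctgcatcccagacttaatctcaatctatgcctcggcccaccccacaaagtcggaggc
Fh1 (chr1:175453206-175453370, minus strand): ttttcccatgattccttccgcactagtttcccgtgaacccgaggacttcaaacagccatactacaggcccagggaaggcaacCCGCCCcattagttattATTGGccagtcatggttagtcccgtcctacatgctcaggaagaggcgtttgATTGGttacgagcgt
Mdh2 (chr5:135807241-135807291, plus strand): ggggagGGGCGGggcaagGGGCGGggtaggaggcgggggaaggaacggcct
Mdh2, which rose, holds 2 GC boxes in its 51 bases, and Fh1, which fell, holds 2 CCAAT boxes and 1 GC box in 165 bases. No letters of either box, nor of a TATA box (TATAAA), an E-box (CACGTG), the NRF1 motif or an ETS motif (CCGGAAG), are in the printed bases of Suclg1 and Idh1. Over the 250 bases before 21770 protein-coding genes, 36.5% hold a CCAAT box, 36.3% a GC box, 11.9% a TATA box, 6.26% the E-box, 6.89% the ETS motif and 0.666% the NRF1 motif. In the full windows of the 7 members, 2 hold a CCAAT box, 2 a GC box and 1 the ETS motif. A match is a description of letters and not a bound site.

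Other genes of these pathways gave the setting of the stage change. Of 56 listed genes that are not members, 45 were tested with lactate, and 7 fell and 4 rose (15.6% and 8.89%, against 5.47% and 8.18% of all genes). Without lactate 40 were tested, and 5 fell and 5 rose (12.5% each, against 5.87% and 5.97%). Mpc2, a subunit of the carrier that brings pyruvate into mitochondria, rose from 28.8 and 11.7 CPM to 191 and 254 with lactate (log2 fold change 3.43 ± 0.46, adjusted p = 0.0139) and from 19.2 and 26.6 to 200 and 191 without (3.03 ± 0.27, adjusted p = 0.00729). Its partner Mpc1 went from 53.2 and 82.8 to 89.8 and 124 CPM with lactate (0.55 ± 0.39, adjusted p = 0.387). Of the succinate dehydrogenase subunits, Sdhd fell in both (log2 fold changes -2.33 and -2.26, adjusted p = 0.0282 and 0.027) and Sdhc fell without lactate (-1.73, adjusted p = 0.0118). Sdha changed by -1.61 and -1.64 (adjusted p = 0.0611 and 0.0725) and Sdhb by -0.65 and -0.01. Ldhb, the lactate dehydrogenase subunit targeted by the inhibitor at the protein level, stood at 6091 to 7135 CPM in the early libraries and 953 to 1457 in late G&N and late G&N-L, and Ldha at 0 to 0.628 and 3.47 to 13.2 CPM.

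Whether lactate bears on these genes was asked at each stage. At the late stage (late G&N-L against late G&N) no member passed an adjusted p of 0.05 in edgeR, as was so for all 19481 genes, and 6 of 43 had an unadjusted p under 0.05. Over all genes 2332 had an unadjusted p under 0.05, and DESeq2 called 916, of which 1 was a member (Pdha1, adjusted p = 0.03). By a looser rule, called the volcano criterion here, which asks for an unadjusted p under 0.05 together with a change of more than 0.5 on the log2 scale, 5 members were lower and 1 higher, 11.6% and 2.33% of those tested, against 7.63% and 4.23% of all genes. The lower members were Pdha1, Idh3a, Idh3g, Pgam1 and Taldo1, and the higher one was Ogdh. With any 1 library left out the count was the same or lower, and the count over all genes was lower each time. With DESeq2's size factors the split was 4 lower and 2 higher. The median of the members was -0.25 on the log2 scale, with 27 of 43 below 0, and that of all genes -0.02.

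Pdha1, the E1 alpha subunit, was read at 38.4 and 61.8 CPM with lactate and at 17.9 and 19.6 without. The groups did not overlap, and its log2 fold change was -1.36 ± 0.34 (edgeR adjusted p = 0.324, range over the alternatives 0.03 to 0.568). Pdhb stood at 142 and 218 against 148 and 101 CPM, which overlapped, and Dlat at 42.1 and 30.4 against 74.5 and 50.1 CPM. In isocitrate dehydrogenase both named subunits were lower: Idh3a went from 65.1 and 99.1 to 40.9 and 41.0 CPM (-0.95 ± 0.28, adjusted p = 0.332) and Idh3g from 62.7 and 133 to 41.8 and 40.3 (-1.19 ± 0.38, adjusted p = 0.337). Pgam1, phosphoglycerate mutase, went from 8.32 and 11.2 to 3.04 and 1.62 CPM (-2.00 ± 0.66, adjusted p = 0.34), and Taldo1, transaldolase, from 38.8 and 26.9 to 16.3 and 16.96 (-0.94 ± 0.37, adjusted p = 0.404). Ogdh was the one in the other direction, at 17.8 and 28.7 CPM with and 37.9 and 44.1 without lactate (0.87 ± 0.34, adjusted p = 0.401). For each of these 6 genes the groups did not overlap, but the genes were picked by p from the same libraries. The share of all genes without overlap was not counted.

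At the early stage (early G&N-L against early G&N) 1 of 41 members was lower by the volcano criterion and 0 higher, against 2.69% and 1.82% of 17343 genes. This was Pdhx, at 353 and 290 CPM without and 571 and 439 with lactate (log2 fold change -0.53 ± 0.18, edgeR adjusted p = 0.9999). No member or other gene passed an adjusted p of 0.05 in edgeR, 1 member and 784 of all genes had an unadjusted p under 0.05, and DESeq2 called 0 members and 37 genes. Among the fits with 1 library left out, Pdhx kept this call only without early G&N replicate 2. Without early G&N replicate 1, the median of the members turned from -0.12 to 0.13 on the log2 scale. That of all genes went from -0.006 to 0.07. The next 5 members by p were Pkm, Tpi1, Eno1, G6pdx and Dlst, all lower without lactate with p of 0.0849 to 0.162 before adjustment in edgeR. All 5 were highest in early G&N replicate 1. Pkm was read at 53.4 and 24.9 against 22.0 and 19.0 CPM, Tpi1 at 46.8 and 26.8 against 12.2 and 22.2, and Eno1 at 24.6 and 12.2 against 7.13 and 9.84. G6pdx was read at 470 and 208 against 194 and 187 CPM, and Dlst at 34.9 and 19.7 against 17.99 and 15.6.

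The difference between the stages in the change without lactate was tested in 1 model of 8 libraries. No member or other gene passed an adjusted p of 0.05 in edgeR, and 4 of 43 members (9.3%) passed the volcano criterion in either direction, against 7.55% of 22287 genes. DESeq2 called 0 members and 231 genes, and 1683 genes had an unadjusted p under 0.05 in edgeR. The 4 members were Idh3g (-1.75 ± 0.54, late minus early on the log2 scale), Pdha1 (-1.21 ± 0.51), Idh3a (-1.06 ± 0.36) and Pdhx (0.94 ± 0.35), with adjusted p of 0.639 for Idh3g and 0.65 for the others. With 1 library left out, the count of members or its split by direction changed in every fit, and the count over all genes changed too.

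Injection of Lac-CoA into embryos without lactate (late G&N-L + Lac-CoA against late G&N-L) was asked of the same genes, in a comparison that shares the late G&N-L libraries with the lactate comparison. No injection is described for the late G&N-L embryos, so Lac-CoA and the injection itself cannot be told apart. No member passed an adjusted p of 0.05 in edgeR, as was so for all 19610 genes, and 9 of 43 members and 2609 of all genes had an unadjusted p under 0.05. DESeq2 called 1183 genes, of which 3 were members (Mdh2, Pdhb and Pdhx). By the volcano criterion 5 were lower and 4 higher, 11.6% and 9.3% of the members, against 6.29% and 6.89% of all genes, and with library totals the split was 4 lower and 6 higher. The count fell with any library left out except the first Lac-CoA library, and so did the count over all genes. The median of the members was 0.10 on the log2 scale and that of all genes -0.01.

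The higher members were Mdh2, Pdhb, Idh3g and Pgk1. Mdh2 stood at 111 and 111 CPM without and 198 and 221 with Lac-CoA, the member with the smallest p here (log2 fold change 0.87 ± 0.18, edgeR adjusted p = 0.294, 0.00386 in DESeq2), and kept its volcano call whichever library was left out. Pdhb went from 148 and 101 to 202 and 277 CPM (0.89 ± 0.28, adjusted p = 0.308), Idh3g from 41.8 and 40.3 to 73.2 and 74.2 (0.79 ± 0.22, adjusted p = 0.304), and Pgk1, phosphoglycerate kinase, from 32.5 and 34.0 to 68.1 and 53.7 (0.83 ± 0.26, adjusted p = 0.309). In all 4 of these genes, likewise picked by p from these libraries, the groups did not overlap. Those lower were Pdhx (111 and 180 to 86.7 and 65.7 CPM, log2 fold change -0.98 ± 0.31), Dlat (74.5 and 50.1 to 36.5 and 19.6, -1.20 ± 0.42), Got2 (16.6 and 21.8 to 7.68 and 7.54, -1.38 ± 0.42), Suclg2 (89.8 and 73.7 to 49.98 and 54.0, -0.70 ± 0.23) and G6pdx (174 and 156 to 121 and 92.8, -0.67 ± 0.23), with adjusted p of 0.305 to 0.317. Pdha1 stood at 37.5 and 21.1 CPM after Lac-CoA against 17.9 and 19.6, with a log2 fold change of 0.60 ± 0.41. The summed maternal level given above was lower after Lac-CoA than without it in both libraries. The summed level of the 10 genes of 2-cell embryos was higher (4036 and 4160 against 2220 and 2681 CPM). With the Dppa genes added it was 12460 and 13680 against 11890 and 13820 CPM, which overlapped. The part of these sums in the member values was not tested.

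**Figure D5:**
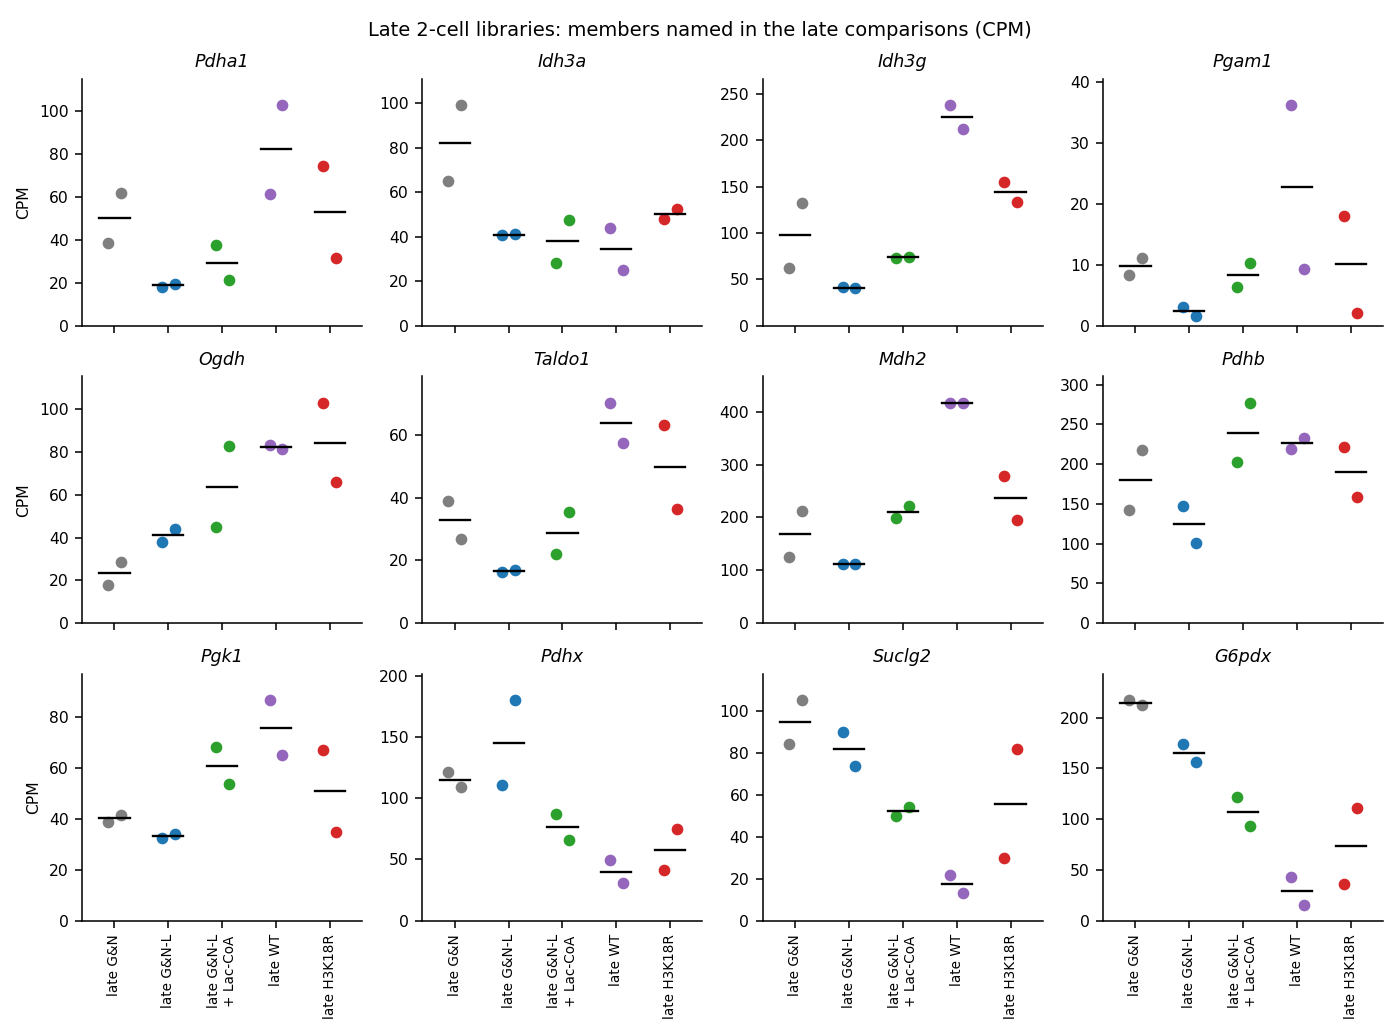
CPM of 12 members in the 10 late libraries, by group; each point is a library and the short line the mean of the 2. By their means, Pdha1, Idh3g, Mdh2 and Taldo1 are lowest in late G&N-L and highest in late WT, and Pdhx, Suclg2 and G6pdx are lowest in late WT.

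Late WT embryos, injected with wild-type H3 mRNA, were set against late G&N to place the inhibitor groups. Inhibitor and NMN are described for late G&N and injection for late WT, so their parts cannot be told apart. The paper does not state whether the medium differed too. Of 41 members tested, 3 were lower (Idh1, Suclg2 and G6pdx) and 1 higher (Ogdh) in late WT at an adjusted p under 0.05 in edgeR, 7.32% and 2.44%, against 2.68% and 1.94% of 18986 genes. The 4 calls were not kept when any of the 4 libraries was left out, and the same held for calls over all genes. DESeq2 called 11 lower and 5 higher (26.8% and 12.2% of the members, against 11.1% and 10.5% of all genes). With DESeq2's size factors in edgeR the split was 2 lower and 0 higher, against 1.71% and 1.44% of all genes (4.88% lower among the members). The median of all genes was -0.16 on the log2 scale and that of the members -0.21. Idh1 was read at 2.00 and 0.925 CPM in late WT and 16.6 and 30.6 in late G&N (-4.05 ± 0.66 on the log2 scale, adjusted p = 0.0431). G6pdx stood at 42.7 and 14.8 against 217 and 212 CPM (log2 fold change -2.95 ± 0.54, adjusted p = 0.0497), and Suclg2 at 21.6 and 13.1 against 83.9 and 105 (-2.49 ± 0.35, adjusted p = 0.0413). Ogdh stood at 83.2 and 81.4 against 17.8 and 28.7 CPM (1.79 ± 0.31, adjusted p = 0.0475). The next members by p were Fh1 (4.57 and 5.67 against 26.5 and 20.6 CPM, -2.25 ± 0.44) and Pdhx (49.2 and 30.8 against 121 and 109 CPM, -1.57 ± 0.31), with adjusted p of 0.0553 and 0.0569. Pdk2 had no count in late WT and 161 in late G&N, all in replicate 2, at least 37.1-fold lower against a floor of 3 counts over the group, and it was not tested here. Maternal transcripts were lowest in late WT too, at 3988 and 3990 CPM in sum, and 3 of the 14 maternal genes passed the adjusted test, all lower. Their part was not tested. Among the other genes of these pathways, Pfkfb3, which makes the activator of phosphofructokinase, was higher in late WT, at 60.1 and 67.3 against 12.1 and 14.5 CPM (2.22 ± 0.29, adjusted p = 0.0413).

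Mutant H3 was compared with wild-type H3 in the injected embryos (late H3K18R against late WT). No member passed an adjusted p of 0.05 in edgeR, where 1 gene of 17704 did, and 3 of 42 members and 1141 of all genes had an unadjusted p under 0.05. By the volcano criterion 1 was lower (Mdh2) and 2 were higher (Idh1 and Suclg2), 2.38% and 4.76%, against 2.67% and 3.77% of all genes. DESeq2 called 118 genes, of which 1 was a member (Idh1, adjusted p = 0.0254). The median was 0.04 on the log2 scale for the members and 0.03 for all genes.

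The late H3K18R libraries stood apart from each other: the maternal sum was 4270 CPM in replicate 1 and 8824 in replicate 2. Idh1 was read at 9.58 and 19.8 CPM in late H3K18R and 2.00 and 0.925 in late WT (log2 fold change 3.33 ± 0.78, edgeR adjusted p = 0.734), and it kept its volcano call whichever library was left out, with changes of 2.72 to 4.01. Suclg2 stood at 30.0 and 81.5 against 21.6 and 13.1 CPM (1.68 ± 0.59, adjusted p = 0.734), higher in replicate 2. Mdh2 stood at 279 and 194 against 417 and 417 CPM (-0.81 ± 0.29, adjusted p = 0.735). The next members by p did not reach the unadjusted threshold. Idh3g stood at 156 and 134 against 238 and 213 CPM (-0.64 ± 0.26), Dlat at 18.6 and 24.5 against 11.7 and 10.8 (0.94 ± 0.43) and Eno1 at 1.53 and 1.40 against 7.39 and 3.45 (-1.88 ± 0.91). With late H3K18R replicate 1 left out, more volcano calls were made in both directions, among the members and over all genes. With either late WT library left out, fewer lower calls were made, again among the members and over all genes. G6pdx was read at 36.4 CPM in late H3K18R replicate 1 and 111 in replicate 2, and Pdk1 at 6.04 and 16.9. In late WT they stood at 42.7 and 14.8 CPM and at 2.35 and 5.46 CPM.

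Across the 5 late groups, means placed Mdh2 in the order late G&N-L, late G&N, late G&N-L + Lac-CoA, late H3K18R and late WT, and only the WT libraries (417 and 417 CPM) lay clear of all others (111 to 279 CPM). Idh3g was at 40.3 to 41.8 CPM in late G&N-L, at 62.7 to 156 CPM in late G&N, late G&N-L + Lac-CoA and late H3K18R, whose libraries overlapped or adjoined, and at 213 and 238 CPM in late WT. For Idh1 the late WT libraries (0.925 and 2.00 CPM) lay below all others (6.16 to 30.6 CPM), which overlapped.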

How the data were processed

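RNA of pooled 2-cell embryos was sequenced in 14 libraries of 7 groups. The deposited values are raw read counts per gene, made by the authors with Trim Galore, HISAT2 and featureCounts on mm39, per the labels; the strand setting of the counting is not given in the sources used here. The methods name 3 replicates a group, and 2 columns a group were analysed.

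The 45 members, their roles and the other gene lists were chosen with earlier results of these data known. Each comparison was fitted over all genes of its libraries with edgeR 4.0.16 (R 4.3.3; quasi-likelihood F test, filterByExpr, trimmed mean of M values, Benjamini-Hochberg adjustment), and the difference between stages as an interaction over 8 libraries. Calls used an adjusted p under 0.05 between stages and between late WT and late G&N, and elsewhere a looser volcano criterion (unadjusted p under 0.05, change of more than 0.5 on the log2 scale). Named in every library were members passing an adjusted p of 0.05 (at most 12), or otherwise the 6 with the smallest p, and members that encode paralogs or regulated steps. Alternatives were DESeq2 1.42.0, other scalings and filters, all 14 libraries in 1 fit, a replicate block and each library left out. Libraries held 20350427 to 61275465 counts; floors cover counting error only. Scripts were tested on simulated data. Transcript lengths came from GENCODE vM39, in which no member had the gene version of the count table, so levels per kilobase are approximate. Replicates of a group differed by more than counting noise (chi-square per degree of freedom of at least 47.8).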

Additional observations from a re-analysis of the deposited data

Results flagged for a closer look

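For 3 members both libraries without lactate lay on one side of both libraries with lactate at the early stage, and on the other side at the late stage. The share of all genes with this pattern was not counted, so the 3 are a description and not a result about these members. The change without lactate at the late minus the early stage was -1.75 ± 0.54 (SE) on the log2 scale for Idh3g, the gamma subunit of isocitrate dehydrogenase, -0.88 ± 0.40 for Mdh2, mitochondrial malate dehydrogenase, and 0.66 ± 0.44 for Got2, mitochondrial aspartate aminotransferase. Idh3g and Mdh2 were higher without lactate early (by 0.58 and 0.37) and lower late (by -1.19 and -0.54), and Got2 was lower early (-0.24) and higher late (0.38). None passed the interaction test in edgeR (adjusted p = 0.639, 0.65 and 0.759).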

How the results depend on the processing

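No called member changed sign in any alternative of its comparison. Of 567 results of single members refitted under other settings, 446 stayed on the same side of the threshold, 80 passed it and 41 no longer did. With 1 library left out, a smaller share stayed on the same side and a larger share no longer passed. Counts of called members moved as follows, and the cause was not tested unless given. DESeq2 called 2 members by the volcano criterion without lactate early (against 1), 5 in H3K18R against WT (against 3), 18 at an adjusted p between stages with lactate (against 9) and 16 in WT against late G&N (against 4). Over all genes DESeq2 called 888, 1475, 5959 and 4104 by the same rules, against 781, 1141, 2654 and 877. Without a filter on low counts 4, 5, 16 and 14 members were called, and 1232, 1841, 5060 and 3668 of all genes. With at least 10 counts in every library fewer genes were tested. The last 3 comparisons then had 5, 14 and 14 members called, and 963, 3217 and 2971 of all genes. Fitting all 14 libraries gave 6 members in H3K18R against WT, 9 in WT against late G&N and 1 in the interaction (against 4). Over all genes these were 1812, 1281 and 1552. Library totals gave 5 members and 2623 of all genes between stages with lactate. Size factors of DESeq2 gave 2 members and 597 of all genes in WT against late G&N. Replicate numbers did not pair the libraries (correlation of same-numbered deviations -0.0402 to 0.00709). A replicate block left 0 calls without lactate early, 6 (4 lower, 2 higher) between stages with lactate and 9 without. Over all genes these were 301, 1839 and 1391. Leaving out 1 library gave 2 to 6 calls without lactate late, 1 to 4 early, 3 to 9 after Lac-CoA, 1 to 11 in H3K18R against WT, 0 to 5 between stages with lactate, 0 to 6 without, 0 in WT against late G&N and 0 to 7 in the interaction, with a lone library assumed to vary like the others. Depth limits members under about 1 CPM, such as Gapdh, Hk1 and Pdk4.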
